A study of Saccharomyces cerevisiae with 4 samples.

Results

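A pair of yeast mutants that affect the RNA exosome from different sides were set directly against each other, without the wild type entering the ratio: dis3mtr, a mutant of the catalytic subunit, and mtr4-1, a mutant of the helicase that feeds RNA to the nuclear form of the complex. Members were all ORFs with values in the deposited tables, each taken once. That gave 133 ORFs out of 144 ORF identifiers listed. They come from 16 tables of GO terms that the authors built around tubulin, the spindle, budding and mitosis, so they sample those processes and not the transcriptome. Each genotype was represented by 1 library.

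The dis3mtr library came from strain T186, whose allele is also called rrp44-1 or mtr17-1, and the mtr4-1 library from strain T188. Wild type was strain BJ2664 and mtr3-1, a mutant of an exosome ring subunit, was strain T208. All 4 cultures were grown in YPD at 30 °C to an OD600 of 0.4 and then kept at 37 °C for 2 h before RNA was taken and selected for poly(A). Because each mutant is its own strain, genotype and strain background cannot be told apart. With 1 library a side there is no replicate, no SD between samples and no test. The depth behind each value is unknown, since the tables hold a normalized value per gene (called units here) and no read counts. Transcripts of DIS3 and MTR4 themselves are not analysed here.

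The exosome degrades and trims RNA from the 3′ end. Dis3 carries its processive exonuclease activity as well as an endonuclease activity and acts in both nucleus and cytoplasm, where the complex also takes part in mRNA turnover. Mtr4 unwinds RNA and, within the TRAMP complex and with other partners, hands nuclear transcripts such as ribosomal RNA precursors and unstable noncoding RNAs to the exosome. A direct contrast of the 2 mutants therefore sets a lesion in the nuclease against a lesion in a nuclear cofactor.

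Most listed genes had a higher value in dis3mtr than in mtr4-1. The ratio of the dis3mtr value to the mtr4-1 value was above 1 for 107 of the 133 ORFs and below 1 for 26. The median ratio was 1.39, a log2 difference of 0.47, with quartiles of 1.13 and 1.76 and extremes of 0.41 for GIM4 and 6.71 for CDC20. The SD of the log2 ratio across ORFs was 0.65, which describes the spread of genes and is not an error. A difference of 1.5-fold was used as the call for a pair of libraries, and 53 ORFs (39.8%) were at least 1.5-fold higher in dis3mtr, 11 (8.27%) at least 1.5-fold lower and 69 between. At 2-fold the numbers were 22 and 3.

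The sources used here do not say how the authors scaled the libraries, and a common scaling factor would move every ratio together. The ratio was therefore also divided by its median over the listed ORFs, here called the rescaled ratio, which balances the sides by construction. On the rescaled ratio 20 ORFs (15%) were at least 1.5-fold higher and 20 (15%) at least 1.5-fold lower. The order of the genes is the same on both scales. Since any ratio from 1 to 1.39 changes side with the division, list counts are given below on both scales. Each is to be read beside the share over all ORFs, 39.8% higher and 8.27% lower as deposited and 15% each way rescaled. Because the median ratio is above 1, all 20 higher ORFs on the rescaled ratio must also pass as deposited. For the same reason all 11 that were lower as deposited must pass on the rescaled ratio. The values nearest to the call were those of CDC14 (1.51) and PAC10 (1.51) just inside and CDC55 (1.49) and DMA1 (1.49) just outside, and at the low side PAC2 (0.662) and YKE2 (0.656) inside and CHS1 (0.673) and BFA1 (0.822) outside.

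**Figure D1:**
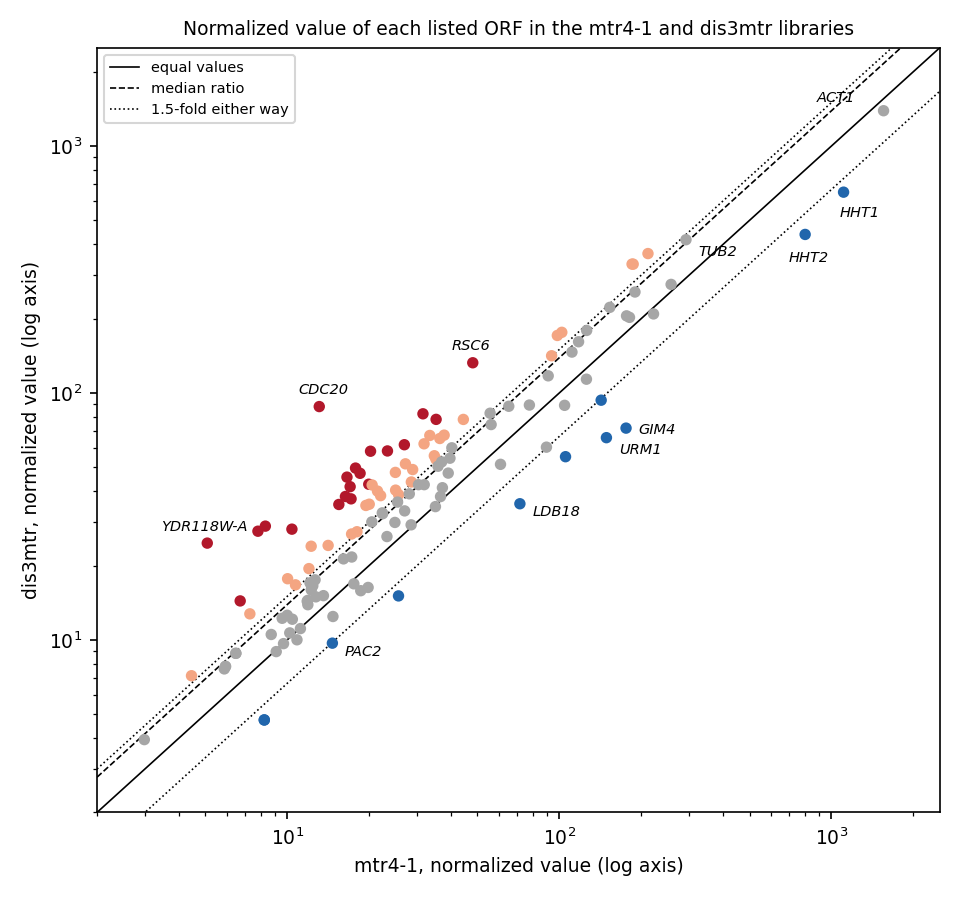
Normalized value of each of the 133 ORFs in the mtr4-1 library (x axis) and the dis3mtr library (y axis), both on log axes, with 1 point per ORF. Dark red marks ORFs at least 1.5-fold higher in dis3mtr on both scales, light red those that pass only as deposited, and blue those at least 1.5-fold lower as deposited; most points lie above the line of equal values, and the median ratio of 1.39 is drawn as a dashed line.

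Of the 133 ORFs, 12 have an uncertain identity. Their listed position disagreed with their name, the identifier had no entry in the R64 annotation, or another ORF carried the same 4 values. They are YDR118W-A, YFR036W-A and YER133W-A, which the tables call APC4, CDC26 and GLC7, together with GLC7, SKP1, BNI5, CEP3, GIN4, CBF2, KCC4, CTF13 and DMA2. GLC7 and YER133W-A, CBF2 and KCC4, and CTF13 and DMA2 share their values pairwise. The other 121 are treated as certain. They include ARP1, CLB4 and RSC4, whose kb position matched R64 but whose listed chromosome number did not.

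CDC20 had the highest ratio of all listed ORFs. This gene, which encodes the activator that directs the anaphase-promoting complex (APC/C) to securin and mitotic cyclins, lies on chromosome 7 at 289 to 291 kb (sacCer2, the build named by the submitters). It stood at 88.1 units in dis3mtr and 13.1 in mtr4-1, with 15.6 in wild type and 11.9 in mtr3-1, so that 3 libraries were close together and dis3mtr alone was high. Its ratio was 6.71 and its rescaled ratio 4.83. CDH1, which encodes the activator of the APC/C in late mitosis and G1, had 41.7 units in dis3mtr and 17.03 in mtr4-1, against 28.7 in wild type and 24.3 in mtr3-1. Here the pair lay on opposite sides of the other libraries, and the ratio was 2.45. ESP1, which encodes separase, the protease that cleaves cohesin, had a ratio of 1.26, on close values in all 4 libraries, and thus lay below the median gene. The list of anaphase activators and separase had 3 measured genes. Of these, 2 were at least 1.5-fold higher on both scales, against 39.8% of all ORFs as deposited and 15% rescaled.

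All 13 APC/C subunit genes on the list used here were measured, and their contrasts were unequal. Of the 13, 6 were at least 1.5-fold higher in dis3mtr, a share near the 39.8% of all ORFs, and none at least 1.5-fold lower. Their median ratio was 1.42 against 1.39 over all ORFs. On the rescaled ratio 3 were higher and none lower. APC1, the gene of the largest scaffold subunit, had 27.5 units in dis3mtr against 7.80 in mtr4-1, 9.32 in wild type and 9.20 in mtr3-1, a ratio of 3.53, and again dis3mtr alone stood apart. CDC16, whose product is one of the TPR subunits, had 58.2 units in dis3mtr against 23.4 in mtr4-1, 21.6 in wild type and 27.2 in mtr3-1. Its ratio was 2.49. The third, MND2, whose product restrains the APC/C activator Ama1 in meiosis, had a ratio of 2.33 with 38.1 units in dis3mtr and 16.4 in mtr4-1. Its values of 27.8 in wild type and 21.0 in mtr3-1 fell between those of the pair.

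The remaining subunits lay nearer to the median gene. DOC1, a subunit that helps bind substrates, had a ratio of 2.07, which rescaled to 1.49. APC9 was at 1.77 and CDC23, another TPR gene, at 1.62. SWM1, CDC26, APC4, APC11 (the RING subunit that recruits the E2 enzyme) and CDC27 had ratios of 1.42, 1.33, 1.32, 1.29 and 1.21. APC2, the cullin-like subunit that pairs with Apc11, was almost equal in all 4 libraries, with 11.2 units in mtr4-1, 11.1 in dis3mtr, 10.9 in wild type and 10.98 in mtr3-1. APC5 was at 9.11 and 8.96 units in mtr4-1 and dis3mtr, a ratio of 0.984. YDR118W-A, which is listed under the name APC4 but has no entry in R64, had the second highest ratio in the tables, 4.85, from 5.08 units in mtr4-1 to 24.6 in dis3mtr. APC4 under its own identifier lies at 685 to 687 kb on chromosome 4, touching the 687 kb listed for YDR118W-A, and was at 1.32.

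Genes of Cdc42 polarity formed the list with the second highest median. Cdc42 is the GTPase that marks the site of bud growth. All 6 measured genes of its list were at least 1.5-fold higher in dis3mtr, against 39.8% of all ORFs, with a median ratio of 2.07. On the rescaled ratio 3 of the 6 were past 1.5-fold, against 15% of all ORFs, and the median was 1.49. The list was drawn up with earlier results known and does not hold SKM1, a measured relative of CLA4 with a ratio of 0.989. BNI1, a formin that nucleates the actin cables along which secretory vesicles travel, had 28.9 units in dis3mtr and 8.31 in mtr4-1, with 15.5 in wild type and 17.4 in mtr3-1. Its ratio of 3.47 thus combined a high dis3mtr value with a low mtr4-1 value. CLA4, a p21-activated kinase downstream of Cdc42, showed the same arrangement, with 58.1 units in dis3mtr, 20.2 in mtr4-1, 27.0 in wild type and 36.6 in mtr3-1, and a ratio of 2.87. CDC24, the exchange factor that activates Cdc42, had 35.3 units in dis3mtr and 15.5 in mtr4-1, between which lay 22.4 in wild type and 21.6 in mtr3-1. Its ratio was 2.28.

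The other polarity genes were closer to the median gene. The effectors GIC1 and GIC2 had ratios of 1.87 and 1.79, and CDC42 itself 1.73, from 212 units in mtr4-1 to 367 in dis3mtr. GIC1 was at 8.02 units in wild type and 41.9 in mtr3-1, so that both mutants of the pair stood well above wild type. TAO3, a gene of the RAM network that controls cell separation and polarized growth, had 47.3 units in dis3mtr against 18.5 in mtr4-1, 19.0 in wild type and 24.4 in mtr3-1, a ratio of 2.55. KEL2, a kelch-repeat gene linked to polarity and mitotic exit, had a ratio of 2.14 on low values of 14.4 and 6.72 units, while its relative KEL1 was at 1.04. ACT1, the actin gene, was among the genes with a ratio below 1: it had 1389.6 units in dis3mtr and 1553.9 in mtr4-1, against 1168.9 in wild type and 1442.5 in mtr3-1. Its ratio of 0.894 is less than 1.5-fold below equality, but its rescaled ratio was 0.644. MYO2, the myosin that carries cargo along actin cables, was at 1.60. The list of actin, formins and kelch proteins shares BNI1 with the polarity list. It had 3 of 5 measured members at least 1.5-fold higher, against 39.8% of all ORFs, none lower and a median of 1.60. On the rescaled ratio 2 were higher and 1, ACT1, lower, and without KEL2, whose mean is under 10 units, the median ratio was 1.32.

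Microtubule motors and plus-end genes were all on the high side as deposited. The 5 measured genes of kinesins, plus-end and midzone proteins were each at least 1.5-fold higher in dis3mtr, against 39.8% of all ORFs. Their median ratio was 1.76. On the rescaled ratio 1 of them passed, against 15% of all ORFs. That gene was KIP3, a kinesin that depolymerizes microtubules at the plus end, with 45.6 units in dis3mtr, 16.6 in mtr4-1, 16.03 in wild type and 19.1 in mtr3-1. Its ratio was 2.75 and dis3mtr alone was high. BIK1, a CLIP-family plus-end protein gene, had a ratio of 1.91 that came about differently: its dis3mtr and wild-type values were both 47.7 units, and mtr4-1, at 24.97, was below mtr3-1, at 37.1. ASE1, which bundles the spindle midzone, was at 1.76, CIK1, whose product pairs with Kar3, at 1.71, and BIM1, the EB1-family gene, at 1.53.

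Dynein and dynactin genes were spread over both sides. Of the 5 measured, 3 were at least 1.5-fold higher and 1 lower, with a median of 1.56, and on the rescaled ratio 2 were higher and 1 lower. The shares over all ORFs were 39.8% higher and 8.27% lower, and 15% each way rescaled. DYN1, the dynein heavy chain, had 28.1 units in dis3mtr, 10.4 in mtr4-1, 11.7 in wild type and 15.8 in mtr3-1, a ratio of 2.70. ARP1, the actin-related core of dynactin, was at 42.7 and 19.9 units in dis3mtr and mtr4-1, a ratio of 2.14, with 15.99 in wild type and 30.8 in mtr3-1. SHE1, a microtubule-associated regulator of dynein, was at 1.56 and the dynactin gene JNM1 at 1.13. LDB18, another dynactin component, was the lone low member: it had 35.6 units in dis3mtr and 71.6 in mtr4-1, against 84.3 in wild type and 76.7 in mtr3-1. Its ratio was 0.497, with dis3mtr below the other 3 libraries.

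Genes of mitotic cyclins and of mitotic exit ranged from 1.11 for CDC15 to 2.29 for NET1. Of the 5 measured B-type cyclin genes, 3 were at least 1.5-fold higher, against 39.8% of all ORFs, and none lower. Their median was 1.52, and none passed on the rescaled ratio. CLB2, the main mitotic cyclin, had 23.9 units in dis3mtr, while mtr4-1, mtr3-1 and wild type had 12.2, 11.7 and 11.9. Its ratio was 1.95. CLB3 was at 1.61 and CLB1 at 1.52, and CLB4 and the S-phase cyclin CLB5 were at 1.17 and 1.16. MOB1, an activator of the mitotic exit kinase Dbf2, matched CLB2 in its ratio of 1.95 but not in its levels: it had 31.8 units in mtr4-1 and 62.2 in dis3mtr, near 67.2 in wild type and 54.6 in mtr3-1.

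NET1, which anchors the phosphatase Cdc14 in the nucleolus, had a ratio of 2.29, from 26.9 units in mtr4-1 to 61.7 in dis3mtr, with 39.0 in wild type and 40.1 in mtr3-1. CDC14 itself was at 1.51, CDC55 at 1.49 and CDC15, a kinase of the mitotic exit network, at 1.11. Of this list 3 of 5 measured genes were at least 1.5-fold higher, against 39.8% of all ORFs, and none lower. The median was 1.51, and NET1 alone passed on the rescaled ratio, at 1.65. The transcripts of the G2/M or CLB2 cluster, whose genes peak together before mitosis, had 4 measured members, CDC20, CLB2, MOB1 and CLB1. All 4 were at least 1.5-fold higher, against 39.8% of all ORFs, with a median of 1.95. On the rescaled ratio CDC20 alone passed, against 15% of all ORFs. Of 5 measured genes of the G1/S list, 4 were at least 1.5-fold higher, against 39.8% of all ORFs, with a median of 1.87. These were GIN4, of uncertain identity, HSL1, GIC1 and GIC2, while CLB5 was not, and GIN4 alone passed on the rescaled ratio. The labels do not give the cell-cycle stage of the cultures, and its part in these values was not tested.

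The morphogenesis checkpoint delays mitosis when bud growth is impaired, and the kinase gene HSL1 and its partner HSL7, which restrain Swe1, had ratios of 2.01 and 2.61. HSL7 had 82.3 units in dis3mtr, 31.5 in mtr4-1, 46.1 in mtr3-1 and 26.2 in wild type. HSL1 had 67.3, 33.4, 45.0 and 16.8 units in the same order. For both, wild type was the lowest and dis3mtr the highest of the 4 libraries. MIH1, the phosphatase that reverses Swe1 phosphorylation of Cdc28, was at 1.28. The list of 6 measured genes had 3 at least 1.5-fold higher, against 39.8% of all ORFs, none lower and a median of 1.66. However, 3 members, GIN4 (2.17), KCC4 (1.32) and BNI5 (1.04), are of uncertain identity. Over the other 3 the median was 2.01. On the rescaled ratio 2 of the 6 were higher, HSL7 and GIN4, and none lower.

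**Figure D2:**
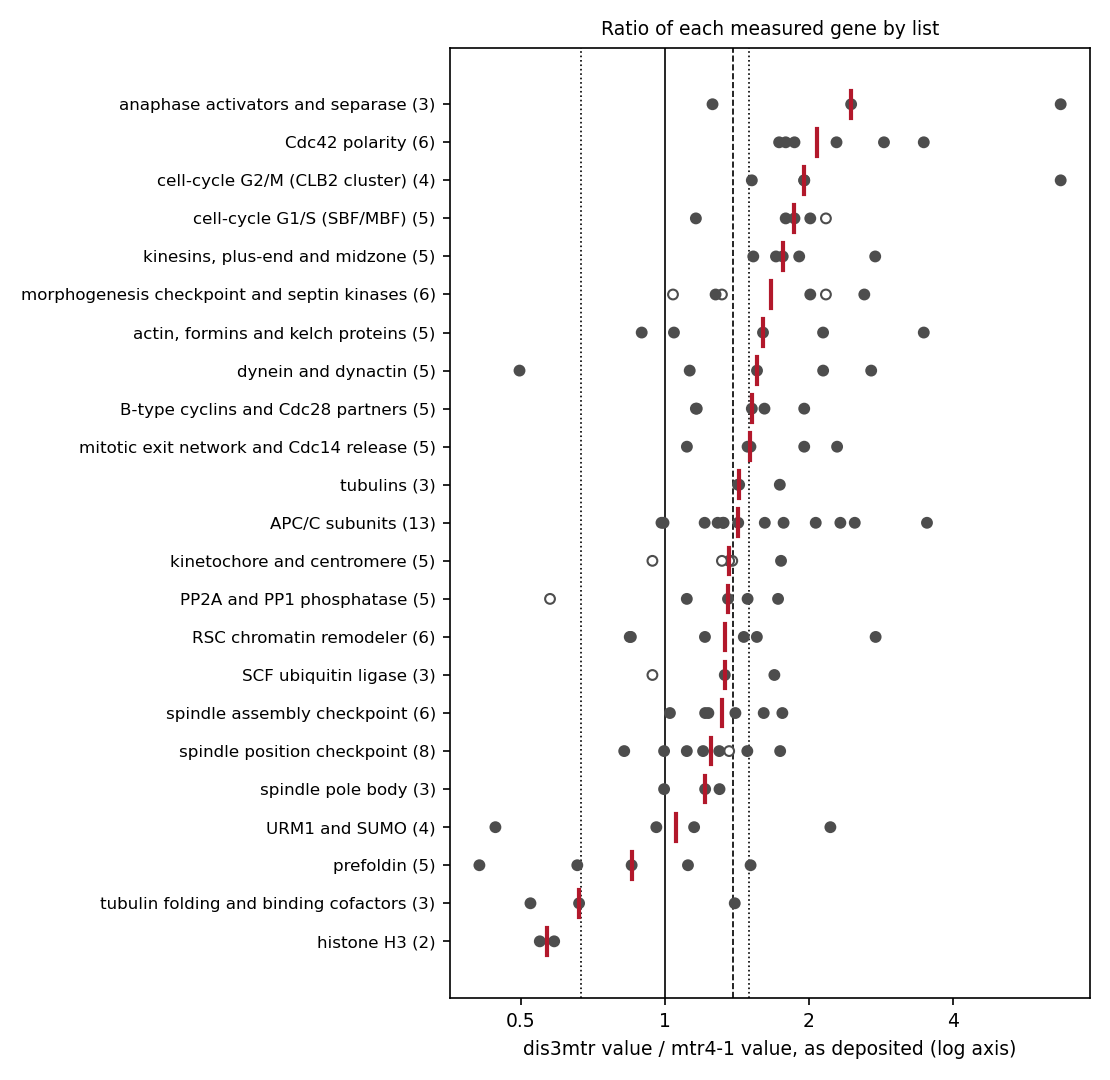
Ratio of the dis3mtr value to the mtr4-1 value (x axis, log) for each measured gene of the 23 lists with at least 2 measured members (number in brackets). Filled points are genes of certain identity, open points those of uncertain identity, red bars list medians, the solid line equality, the dashed line the median of all 133 ORFs (1.39) and the dotted lines 1.5-fold either way; the anaphase activators and Cdc42 polarity lists have the highest medians, 2.45 and 2.07, and histone H3 the lowest, 0.567.

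The spindle assembly checkpoint halts anaphase while chromosomes are unattached, and its 6 listed genes were all measured. BUB3 (1.76) and BUB1 (1.61) were at least 1.5-fold higher in dis3mtr, MAD3, MAD1 and MPS1 were at 1.404, 1.23 and 1.21, and MAD2 at 1.02. Thus 2 of the 6 passed on the high side, against 39.8% of all ORFs. The median ratio was 1.32, and none passed on the rescaled ratio. BUB1 rests on low values of 4.45 units in mtr4-1 and 7.16 in dis3mtr. The spindle position checkpoint, which holds back mitotic exit while the spindle is misplaced, had 1 of 8 measured genes at least 1.5-fold higher, against 39.8% of all ORFs. That gene was the kinase gene KIN4 at 1.74, and the list median was 1.25. Rescaled, none was higher and 1, BFA1, was lower.

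BFA1, which with Bub2 forms the GTPase-activating complex that keeps Tem1 off, ran the other way, at 19.8 units in mtr4-1 and 16.3 in dis3mtr. Both lay above 13.5 units in mtr3-1 and 4.13 in wild type, and the ratio was 0.822, or 0.592 rescaled. BUB2 was at 1.20, LTE1 at 1.30, RTS1 at 1.11, DMA1 at 1.49 and DMA2, of uncertain identity, at 1.36. SPC72, which anchors the γ-tubulin complex at the outer face of the spindle pole body, had 9.69 and 9.65 units in mtr4-1 and dis3mtr, nearly the same level. With SFI1 at 1.30 and MPS1 at 1.21, the 3 measured spindle pole body genes had a median of 1.21 and none passed 1.5-fold. On the kinetochore and centromere list used here, 5 genes were measured. Of these only BIR1, a survivin-family subunit of the chromosomal passenger complex, is of certain identity. Its ratio was 1.75, from 7.29 units in mtr4-1 to 12.7 in dis3mtr. SKP1 (0.942), CBF2 (1.32), CTF13 (1.36) and CEP3 (1.38) are of uncertain identity.

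The 11 ORFs on the low side included genes of tubulin folding, histone H3, dynactin and the Urm1 pathway. Prefoldin (GimC) hands nascent tubulin and actin to the cytosolic chaperonin, and GIM4, one of its subunits, had the lowest ratio in the tables. GIM4 lies on chromosome 5 at 148 kb and had 72.0 units in dis3mtr against 176 in mtr4-1, 189 in wild type and 111 in mtr3-1. Its ratio was 0.410, with dis3mtr below the other 3 libraries. YKE2, another prefoldin subunit, had 93.5 units in dis3mtr and 142 in mtr4-1, a ratio of 0.656, but mtr3-1, at 94.7, was as low as dis3mtr and wild type was at 215. GIM5 was at 0.852, GIM3 at 1.12 and PAC10 at 1.51, so subunits of the same complex lay on both sides of the call. Of the 5 measured prefoldin genes 1 was at least 1.5-fold higher and 2 lower, against 39.8% and 8.27% of all ORFs, with a median of 0.852. On the rescaled ratio none was higher and 3 were lower, against 15% of all ORFs each way.

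RBL2, whose product binds free β-tubulin, had 55.2 units in dis3mtr against 105 in mtr4-1, 65.1 in mtr3-1 and 144 in wild type, a ratio of 0.524. PAC2, a cofactor that handles α-tubulin, had 9.70 units in dis3mtr and 14.7 in mtr4-1, a ratio of 0.662, with 13.3 in mtr3-1 and 17.9 in wild type. CIN1, the cofactor acting on β-tubulin, was at 1.399.

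Tubulin genes themselves did not share this low side. TUB3, the minor α-tubulin gene, had a ratio of 1.74, from 98.3 units in mtr4-1 to 171 in dis3mtr, with 140 in wild type and 137 in mtr3-1. TUB2, the β-tubulin gene, was at 417 units in dis3mtr and 292, 289 and 274 in mtr4-1, mtr3-1 and wild type, a ratio of 1.43. TUB1, the major α-tubulin gene, had 179 units in dis3mtr, 126 in mtr4-1, 136 in mtr3-1 and 130 in wild type, a ratio of 1.42. For each of the 3, dis3mtr was the highest library, and none passed 1.5-fold on the rescaled ratio. The 7 measured genes of the chaperonin CCT, a group picked after its values were seen, had ratios from 1.16 for CCT5 to 1.80 for CCT6 and a median of 1.37, so the chaperonin that receives tubulin from prefoldin lay at the median gene.

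The other low genes were of different kinds. URM1, a ubiquitin-like protein that is a sulfur carrier in tRNA modification, lies on chromosome 9 at 342 kb and had 65.9 units in dis3mtr, 149 in mtr4-1, 129 in mtr3-1 and 221 in wild type, a ratio of 0.442. UBA4, the gene of the enzyme that activates Urm1, was on the opposite side with a ratio of 2.22. It had 35.2 units in mtr4-1 and 78.1 in dis3mtr, next to 69.4 in wild type and 120 in mtr3-1, so mtr4-1 was the library that stood apart. In the SUMO pathway UBC9 was at 1.151 and ULP1 at 0.960.

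Both histone H3 genes were lower in dis3mtr. HHT2 had 438 units in dis3mtr, 800 in mtr4-1, 421 in mtr3-1 and 1417.3 in wild type, a ratio of 0.548. HHT1 had 650 units in dis3mtr, 1107.9 in mtr4-1, 402 in mtr3-1 and 1506.0 in wild type, a ratio of 0.587. For both, mtr4-1 lay between wild type and the exosome subunit mutants. These genes encode the same protein, and the handling of reads that match both is not stated in the sources used here. CHS1, a chitin synthase that repairs the wall after cell separation, had 60.3 units in dis3mtr and 89.7 in mtr4-1, both far below 191 in mtr3-1 and 179 in wild type. Its ratio of 0.673 was just short of 1.5-fold as deposited. GLC7, of uncertain identity, was at 4.74 and 8.24 units, a ratio of 0.575.

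Subunit genes of the RSC chromatin remodeler, a complex that slides and evicts nucleosomes at promoters, were also unequal. RSC6 had 132 units in dis3mtr and 48.1 in mtr4-1, with 101 in wild type and 82.2 in mtr3-1, a ratio of 2.76. STH1, the ATPase, was at 1.56, SFH1 at 1.46 and RSC9 at 1.21. RSC4 and RSC3 were at 0.849 and 0.844. Of the 6 measured genes 2 were at least 1.5-fold higher, against 39.8% of all ORFs, none lower, and the median was 1.34. After rescaling, 1 was higher, RSC6, and 2 were lower, RSC3 and RSC4. Of 5 measured phosphatase genes, PPH21 (1.72) passed on the high side and GLC7 on the low side, against 39.8% and 8.27% of all ORFs. CDC55 was at 1.49, PPH22 at 1.35 and RTS1 at 1.11, with a median of 1.35. After rescaling, none was higher and GLC7 was lower. In the SCF ubiquitin ligase CDC4, the substrate receptor for Sic1, was at 1.69, the cullin CDC53 at 1.33 and SKP1 at 0.942, and none passed on the rescaled ratio.

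**Figure D3:**
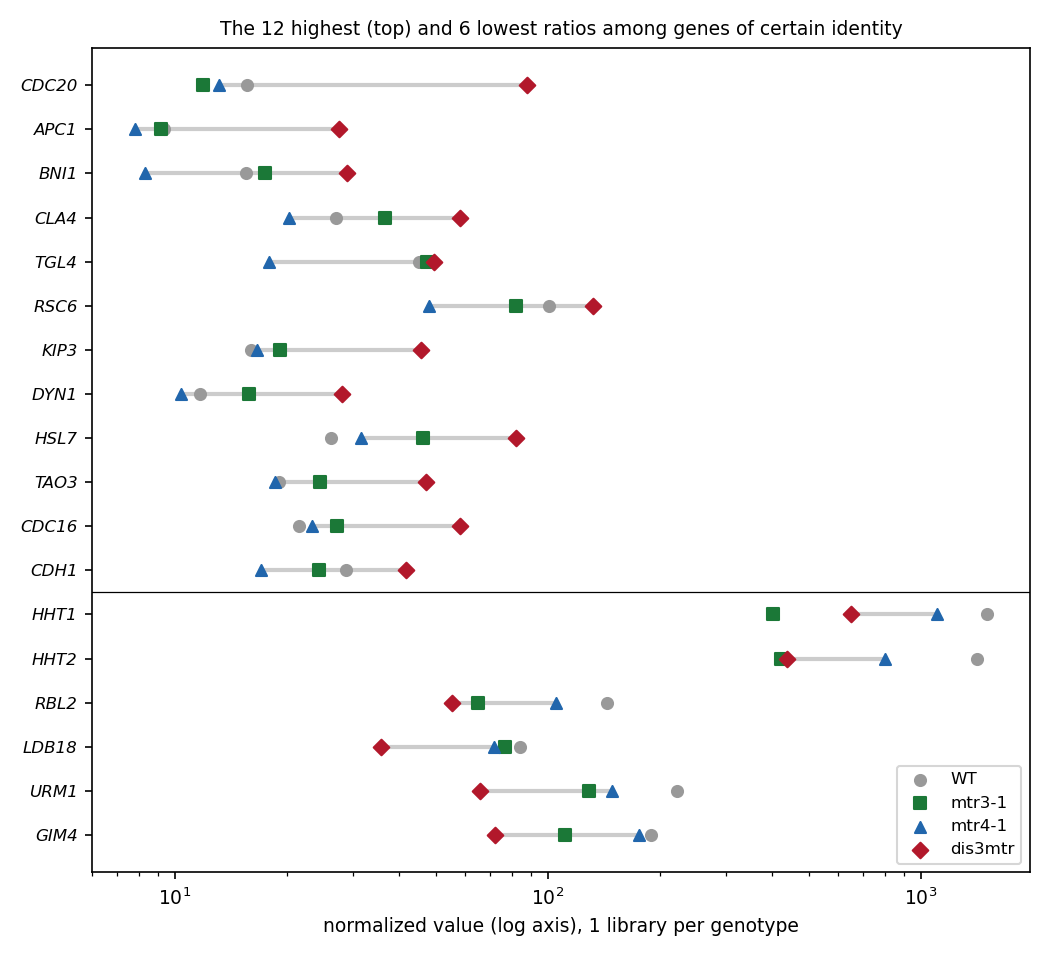
Normalized value (x axis, log) in each of the 4 libraries, 1 per genotype, for the 12 genes with the highest ratio of dis3mtr to mtr4-1 (above the line) and the 6 with the lowest (below it) among genes of certain identity. Grey bars join mtr4-1 and dis3mtr; in CDC20, APC1 and KIP3 the other 3 libraries lie together, while in TGL4 mtr4-1 is the separate library.

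The values of wild type and mtr3-1, which do not enter the ratio, show which library of the pair stood apart. Of the 53 ORFs at least 1.5-fold higher in dis3mtr, dis3mtr was the highest of the 4 libraries in 41 and mtr4-1 the lowest in 35, both were so in 26 and neither in 3. Over all 133 ORFs the corresponding numbers were 69, 64, 36 and 36, and choosing ORFs by the ratio of the pair raises such counts by itself. Of the 11 ORFs at least 1.5-fold lower, dis3mtr was the lowest library in 9 and mtr4-1 was the highest in none. Over all 133 ORFs these numbers were 18 and 4. These orders depend on the scaling. When each library was divided by its own median, an alternative chosen after seeing the data, 11 ORFs were at least 1.5-fold higher in dis3mtr, and dis3mtr was the highest and mtr4-1 the lowest in 3 of them. On that scale 32 ORFs were at least 1.5-fold lower, so the balance of the sides was turned. In these, dis3mtr was the lowest library in 29 and mtr4-1 the highest in 12. Over all 133 ORFs on that scale, dis3mtr was lowest in 61 and mtr4-1 highest in 39. In 8 of the 133, dis3mtr was highest and mtr4-1 lowest. The library medians were 23.4 units in mtr4-1, 39.0 in dis3mtr, 28.6 in mtr3-1 and 29.1 in wild type.

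Values as deposited were also set against the geometric mean of wild type and mtr3-1, a reference chosen after seeing the data. The 20 ORFs that were higher on both scales fell into different patterns. In 16 of them dis3mtr was at least 1.5 times the reference, in 7 mtr4-1 was at most 0.667 times it, in 4 both held, and in 1, GIN4, neither did. Over all 133 ORFs these numbers were 36, 22, 4 and 79. Choosing ORFs by the ratio of the pair raises such counts by itself. CDC20 was at 6.45 times the reference in dis3mtr and 0.961 times in mtr4-1, so its contrast lay on the dis3mtr side. APC1 (2.97 and 0.843), KIP3 (2.60 and 0.947), CDC16 (2.40 and 0.963) and HSL7 (2.37 and 0.907) were arranged in the same way. TGL4, a triacylglycerol lipase gene on chromosome 11 at 605 to 608 kb, was the opposite case: dis3mtr was at 1.07 times the reference and mtr4-1 at 0.386 times. It had 17.8 units in mtr4-1, with 49.6 in dis3mtr, 47.4 in mtr3-1 and 45.1 in wild type.

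UBA4 (0.857 in dis3mtr and 0.387 in mtr4-1), BUD14 (0.889 and 0.494), a regulator of formins, and MOB1 (1.03 and 0.526) had the same arrangement as TGL4. As deposited, BNI1 (1.76 and 0.506) and CLA4 (1.85 and 0.644) were past 1.5-fold on both sides of the reference. On the low side, 10 of the 11 ORFs had dis3mtr at 0.667 times the reference or less, and mtr4-1 was so in 2, the entries GLC7 and YER133W-A, which carry the same values. HHT1 was the exception, with dis3mtr at 0.835 times the reference and mtr4-1 at 1.42 times. Over all 133 ORFs, dis3mtr was at most 0.667 times the reference in 12 and mtr4-1 in 22. The medians over all ORFs were 1.17 in dis3mtr and 0.843 in mtr4-1. The patterns against the reference therefore depend on the scaling. They hold for values as deposited and were not recomputed on another scale.

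**Figure D4:**
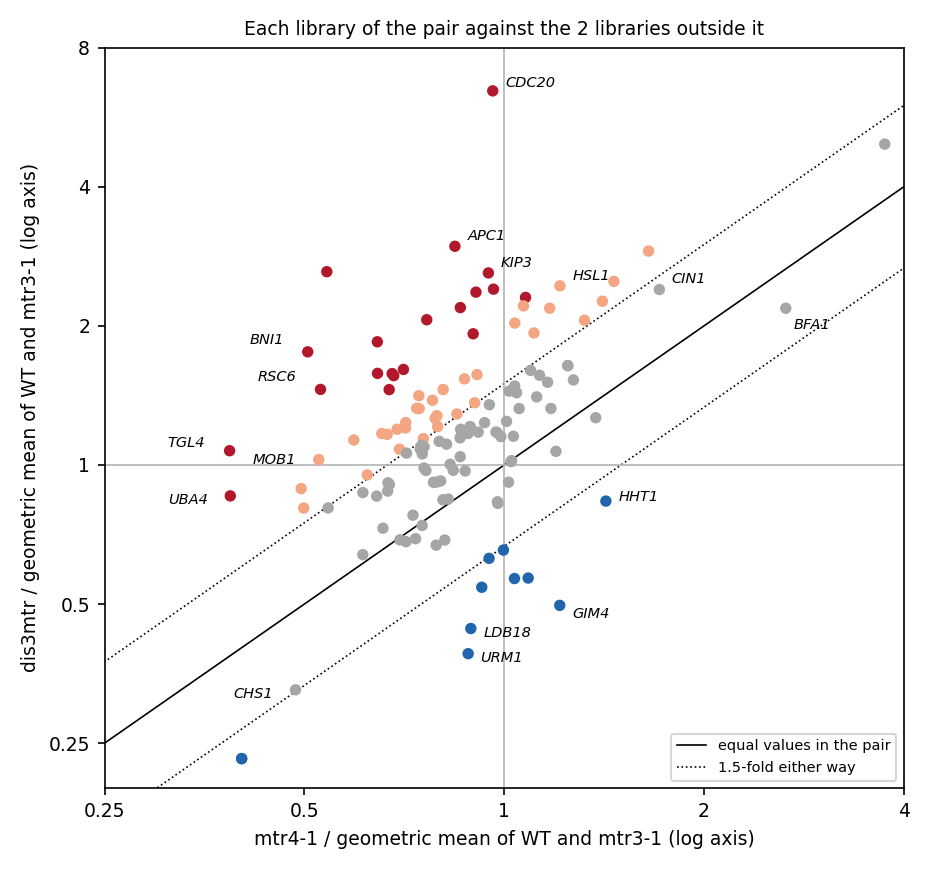
Value in mtr4-1 (x axis) and in dis3mtr (y axis), each divided by the geometric mean of the wild-type and mtr3-1 values of the same ORF, both on log axes, for the 133 ORFs; colours mark the calls of 1.5-fold between dis3mtr and mtr4-1 (dark red, higher on both scales; light red, higher as deposited only; blue, lower as deposited). CDC20, APC1 and KIP3 lie high near an x value of 1, TGL4 and UBA4 lie far to the left near a y value of 1, and most blue points lie low near an x value of 1.

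Coding length moved with the ratio. Across the 121 genes of certain identity Spearman's rho between coding length (R64) and the ratio was 0.27. It is given as a description, since all genes share the same pair of libraries. Without the histone H3 genes, the prefoldin genes and RBL2, which are short, it was 0.14. That set was chosen after seeing the data, and other short genes such as URM1 (300 bp) stayed in. In 4 groups of rising length the median ratio was 1.31 (300 to 1107 bp), 1.46 (1110 to 1641 bp), 1.22 (1650 to 2382 bp) and 1.74 (2403 to 12279 bp), so it did not rise from group to group. Counts at the ends of the range depended on the scale. As deposited, the shortest group held 8 of the 9 certain genes at least 1.5-fold lower in dis3mtr. The longest held 19 of the 51 certain genes at least 1.5-fold higher, against 12, 12 and 8 in the groups of rising length before it. On the rescaled ratio the longest held 12 of the 18 certain higher genes. The shortest then held 10 lower genes, against 2, 4 and 2 in the groups after it. Among long genes CHS1 (3396 bp) was low, and among short genes DOC1 (753 bp, ratio 2.07) and CDC42 (576 bp, 1.73) were high. The part of length in the contrasts was not tested. Between the ratio and the mean level over the 4 libraries rho was -0.054.

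**Figure D5:**
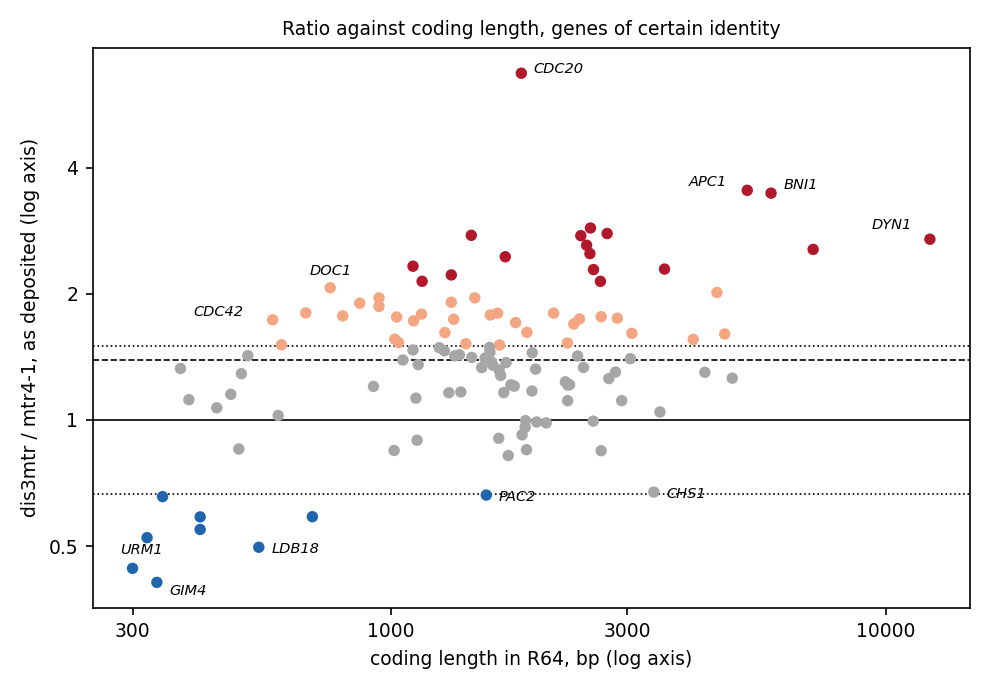
Ratio of the dis3mtr value to the mtr4-1 value (y axis, log) against coding length in bp (x axis, log) for the 121 genes of certain identity. Solid, dashed and dotted lines mark equality, the median ratio of 1.39 and 1.5-fold either way, with colours as in the plot of the pair; most low genes lie at the short end, PAC2 at 1557 bp is an exception, and CHS1 at 3396 bp lies just above the lower dotted line.

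Related and adjacent genes gave a view of how far the contrast was shared between close copies or along a chromosome. Among 8 pairs of paralogs, picked with the values in view, 6 had ratios within 1.5-fold of each other: GIC1 and GIC2, HHT1 and HHT2, TUB3 and TUB1, PPH21 and PPH22, CLB2 and CLB1, and CLB3 and CLB4. CLA4 (2.87) and its relative SKM1 (0.989) differed by 2.90-fold in ratio, and KEL2 and KEL1 by 2.05-fold. The assignment of reads shared between copies is likewise unknown. Immediate chromosomal neighbours also diverged. TGL4 (2.78) and TVP38 (0.845), which encodes a membrane protein of the Golgi, follow each other on the same strand, and CLB2 (1.95) and CLB5 (1.16) are convergent neighbours on opposite strands, while CCT3 (1.35) and MAD3 (1.404), also facing each other from opposite strands, were alike. Whether reads were counted by strand is not stated in the sources used here.

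By the authors' terms, the median ratio was above 1 in 14 of 16 and at least 1.5 in 5. After rescaling, 8 of the 16 medians were above 1. The term for establishment of spindle orientation, with KIP3, DYN1, BNI1 and ARP1, had a median of 1.65 over 10 entries with values, 6 of them at least 1.5-fold higher and 1, LDB18, lower, and 4 higher and 2 lower on the rescaled ratio. The terms for regulation of mitotic exit (1.63, 9 of 14 entries higher) and for spindle elongation (1.59, 12 of 22 higher) had no entry at least 1.5-fold lower, against 39.8% higher and 8.27% lower over all ORFs. Rescaled, the first had 2 higher and 1 lower and the second 5 higher and 1 lower. The term for tubulin assembly chaperones was the lowest, with a median of 0.754 over 6 entries, 3 of them at least 1.5-fold lower and 1 higher, and 4 lower and none higher on the rescaled ratio. The terms share genes, since 38 ORFs sit in more than 1 of them, and 3 terms have fewer than 5 entries with values.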

How the data were processed

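Poly(A)-selected RNA of 4 strains was sequenced in 1 lane, with 1 library per genotype. Per the labels, libraries were barcoded and run for 36 cycles on an Illumina GAIIx. Bowtie and the build sacCer2 are named in the submitters' processing notes. Versions, read assignment and normalization were not given in the sources used here. Per the file headers, the deposited values are normalized numerical values per gene and library, treated here as a score whose ratio between libraries of the same gene is used. They are not counts, so depth is unknown and no interval could be attached.

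From the 190 entries of the 16 tables, 175 with values were kept and reduced to 133 ORFs by the first ORF identifier. Repeated entries of an ORF carried identical values. Names and coding lengths came from R64, in which 130 of the 133 were found. Listed kb positions were compared with R64 at a tolerance of 1 kb, and 3 genes whose kb position matched under another chromosome number were accepted. No sequence was read, because R64 is not the build of the files, and the planned search of promoter motifs was not run. Ratios were computed without a pseudocount or filter in Python 3.11.15 (pandas 2.3.3, numpy 2.4.6, scipy 1.17.1), and the counting steps were tested on simulated data. No p-value exists for 1 library a side.

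The 24 gene lists, of which 23 had at least 2 measured members, and the members themselves were chosen with earlier results of these data known. CHS1 was the lone measured gene of the M/G1 list. Genes named are the 15 highest and 15 lowest ratios, the extremes of each list, all members of lists with at most 12 measured, the tubulin and actin genes and those nearest the call. A single gene that this rule names is not reported here. Others named, such as BUD14, the remaining APC/C subunits and the CCT genes, were chosen after their values were seen. Alternatives covered scaling, pseudocount, low values, identity and the fold.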

Additional observations from a re-analysis of the deposited data

How the results depend on the processing

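The count of ORFs at least 1.5-fold higher in dis3mtr was 53 as deposited, 20 after division by the median ratio, 19 when a mean of at least 10 units was also required (chosen after seeing the data), 22 at 2-fold, 6 at 2-fold after that division and 99 at the authors' own, lower thresholds. The count of lower ORFs was 11, and became 20 after division by the median ratio, 19 with the added filter on low values, 3 at 2-fold, 12 at 2-fold after that division and 16 at the authors' thresholds. The median ratio of 1.39 became 1 by construction after its own division and 1.24 after division by the ratio of summed values. Lists with a median of at least 1.5 numbered 10 as deposited, 1 after division by the median ratio and 5 after division by the ratio of summed values. The 1 list was that of anaphase activators and separase, with a median of 1.76 over only 3 measured genes. Of the 53 higher ORFs, 26 had dis3mtr highest and mtr4-1 lowest. With each library divided by its own median, this held in 3 of the 11 higher ORFs. Over all 133 ORFs the numbers were 36 and 8. The rho with coding length of 0.27 was 0.14 without histone H3, prefoldin and RBL2, a set chosen after seeing the data. A pseudocount of 1 unit, a minimum mean of 10 units, counting equal values once and leaving out uncertain identities moved neither count of ORFs nor that of lists by over 1.5 times, and the median ratio by no more than 1.1 times. The count of 26 was 24 without uncertain identities and was not recomputed under the other settings. For the 30 named genes at either end, the 4 alternatives run could not move a ratio across 1, so they say nothing about robustness. No paired analysis was possible because each genotype has 1 library. Depth is unknown, so differences on low values, such as those of BUB1 and KEL2, carry an error that cannot be stated.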
